A study of Mus musculus with 36 samples.

Results

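Late neuroblasts were compared with quiescent stem cells of the adult mouse brain across all genes that either population expressed. The comparison takes the 3 libraries of the sorted population labelled NB2 minus the 4 libraries of the population labelled qNSC, 7 of the 36 samples of the series. A gene was included when 3 or more libraries of either group had a deposited log2 value of 0 or higher, which selected 16670 of the 19909 genes in the table. Of these, 13264 reached that level in both groups, 1844 in qNSC alone and 1562 in NB2 alone. The sampled mice were C57BL/6 and 8 weeks old with no transgene named, and the dye treatment (DFFDA) in the protocols belongs to cultured neurosphere samples not used here. Every population was isolated by flow cytometry from homogenised subependymal zone (SEZ), the neurogenic tissue along the lateral ventricles. The labels name the populations without giving the gates, so the words late neuroblast and quiescent stem cell rest on the population names and on the marker genes described next. The libraries are called biological replicates, without a statement that each came from a separate animal, so every p-value measures the spread between these libraries. The other sorted populations (pNSC, aNSC, NPC1, NPC2, NB1 and Other) enter only through the shared estimate of that spread and as reference levels.

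Stem cells of the SEZ are astrocyte-like cells that can stay out of the cell cycle for long periods while keeping the ability to return to it. When activated they give rise to fast-dividing progenitors and then to neuroblasts, which migrate in chains to the olfactory bulb and become mostly GABAergic interneurons. Quiescence and neuronal differentiation both involve leaving the cell cycle, the first reversibly and the second for good, and pocket proteins and inhibitors of cyclin-dependent kinases (CDKs) act in both.

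The values resemble log2 CPM and are written below as levels, with differences given as NB2 minus qNSC on the log2 scale. Each library has a lowest value, its floor, shared by all genes with little or no signal. The qNSC replicate 1 library stood apart, with a floor of -2.18 and 3932 genes at it, and correlations across genes of 0.865 to 0.871 with the other qNSC libraries. Floors in the other qNSC and the NB2 libraries lay between -4.79 and -4.19, with 989 to 1876 genes at them. Read totals are not given, so depth is known only through these floors.

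The population names were checked on genes that define each cell type. Gfap, which encodes the intermediate filament of astrocytes and adult neural stem cells (chromosome 11, 102887336 to 102900912, GRCm38), had levels of 7.02, 7.18, 6.71 and 6.86 in the 4 qNSC libraries and -2.83, -0.42 and -0.37 in the 3 NB2 libraries. Slc1a2, the astroglial glutamate transporter (chromosome 2, 102658659 to 102790784, GRCm38), had levels of 10.75, 10.72, 10.88 and 10.85 in qNSC and 4.92, 4.87 and 4.81 in NB2. Dcx, the microtubule-associated protein of migrating neuroblasts (chromosome X, 143855842 to 143933311, GRCm38), ran the other way, with 3.3, 3.89, 3.09 and 3.42 in qNSC and 9.3, 9.55 and 9.72 in NB2. No library of either group overlapped the other for these 3 genes. Differences were -8.15 ± 0.83 for Gfap, -5.94 ± 0.2 for Slc1a2 and 6.1 ± 0.34 for Dcx (SE), with limma adjusted p-values of 3.33e-09, 5.26e-18 and 4.16e-14. The Gfap difference was -7.34 without NB2 replicate 1.

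Most expressed genes differed between the populations. Of the 16670 genes, 11879 (71.3%) were called at an adjusted p under 0.05 (limma, Benjamini-Hochberg), 6843 higher in NB2 (41%) and 5036 lower (30.2%). Over 2-fold differences were called for 9184 genes (55.1%), 5104 higher and 4080 lower, and over 16-fold differences for 788 higher and 1301 lower. The median difference over all 16670 genes was 0.298. Centring the libraries on the differences of expressed genes, an alternative chosen after seeing the data, lowered that median to 0.0774 and the share of calls that were higher in NB2 from 57.6% to 50.8%. Groups did not overlap for 11526 genes (69.1%), of which 10926 were called. Since 71.3% is the background for any gene, a list with that share of its members called shows nothing beyond it, and direction and size carry the description of each list. The gene lists used below are described by counts and medians without a test of the list. In bulk RNA, fewer cells of a type and less RNA per cell cannot be told apart.

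**Figure D1:**
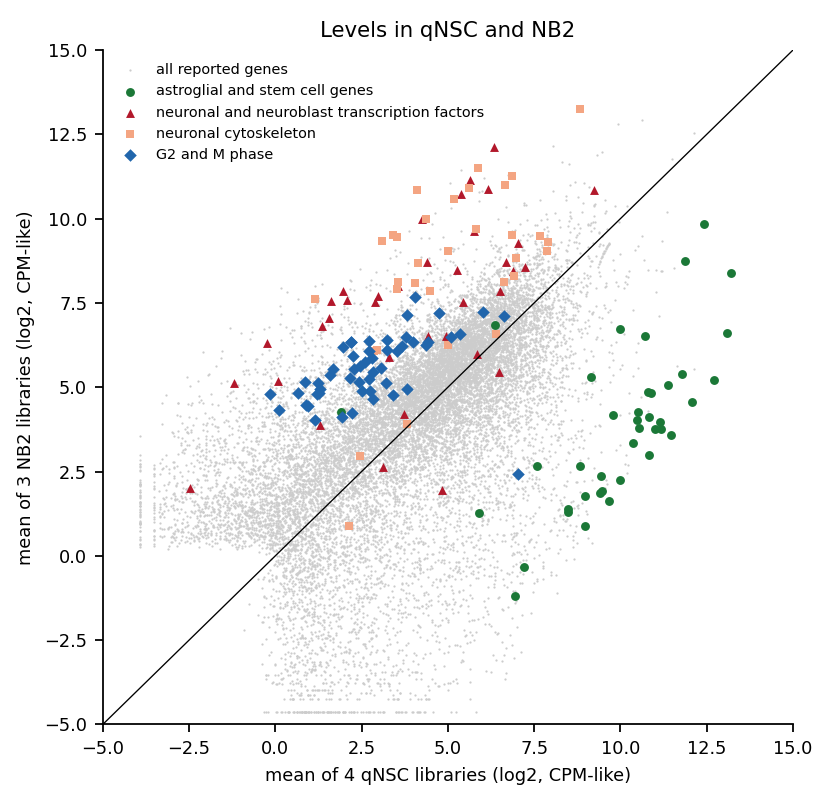
Mean level in the 4 qNSC libraries (horizontal axis) against the 3 NB2 libraries (vertical axis), both log2 and CPM-like, for 16670 genes in grey, with 4 gene lists coloured and the line of equal level in black. Of the astroglial genes, 38 of 40 lie below the line and were called lower in NB2, while 31 of 36 neuronal transcription factors and 51 of 52 genes in the G2 and M phase list lie above it and were called higher.

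Astroglial and stem cell genes were mostly lower in NB2, with a mean level over the list of 9.9 in qNSC and 3.89 in NB2. Among 40 astroglial and stem cell genes, 38 were lower and 2 higher in NB2, with a median difference of -6.74. Slc1a3, a glutamate transporter of radial glia and astrocytes (chromosome 15, 8634124 to 8710764, GRCm38), had levels of 12.12, 12.3, 11.99 and 12.12 in qNSC and 5.39, 5.61 and 5.59 in NB2, 97.3-fold lower (adjusted p 5.26e-18). Plpp3, a lipid phosphate phosphatase of astrocytes, had 11.87, 11.99, 11.67 and 11.67 against 5.14, 5.41 and 5.64, and Mlc1, an astrocyte membrane protein, 10.67, 10.55, 10.45 and 10.49 against 3.53, 3.78 and 4.05. Both were called lower, at -6.4 ± 0.23 and -6.76 ± 0.25 (SE, adjusted p 1.55e-17 and 1.9e-17). Ntrk2, the receptor for brain-derived neurotrophic factor, kept levels of 6.33, 6.67 and 6.59 in NB2 below 10.81, 10.75, 10.67 and 10.64 in qNSC. Cst3, the secreted protease inhibitor cystatin C, had 8.57, 8.32 and 8.28 in NB2 and 13.26, 13.02, 13.26 and 13.26 in qNSC, so neither gene was near the floor in neuroblasts, and both were called lower. The value 13.26 is the top value that every library shares, so a gene at it can be no higher in these data. The 2 exceptions encode intermediate filaments of immature neural cells. Nes had 4.23, 1.01, 0.94 and 1.48 in qNSC and 4.34, 4.24 and 4.18 in NB2. Its difference of 2.34 ± 0.46 (adjusted p 8.48e-05) grew to 3.11 without qNSC replicate 1, the library that overlapped NB2. Vim differed by 0.47 ± 0.18, and this small call ended without qNSC replicate 1 (adjusted p 0.0821), without NB2 replicate 1 (0.129) and after centring on expressed genes (0.182).

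Among the largest decreases, Gcnt4, a glycosyltransferase, and Aass, a lysine-degrading enzyme, were at the floor in all 3 NB2 libraries and had levels of 4.25, 5.44, 5.55 and 5.67 and 4.82, 5.14, 4.98 and 5.41 in qNSC, for which no fold is given. Among genes with no library of either group at its floor, the zinc transporter Slc39a12 had 9.05, 9.21, 9.2 and 9.2 in qNSC and 0.55, -0.42 and 0.98 in NB2 (-8.8 ± 0.98, SE, adjusted p 1.71e-08). The secreted Lgi4 had 8.46, 8.75, 8.68 and 8.68 against -1.61, 1.53 and -0.2, and its difference of -8.74 ran from -9.55 without NB2 replicate 2 to -7.98 without NB2 replicate 1. Il33, an alarmin cytokine, had 7.31, 7.52, 7.39 and 7.61 against -0.19, -2.26 and -0.8, with -8.54 overall and -7.95 without NB2 replicate 2. The chemokine Cxcl14 differed by -8.55 and the ATP-hydrolysing ectoenzyme Entpd2 by -8.36. The qNSC libraries lay close together for each of these genes, apart from Gcnt4 in qNSC replicate 1, while the NB2 libraries spread more widely.

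Transcription factors of stem cells were mostly lower in NB2, with 32 of 38 lower and 4 higher (median -3.9). Sox9, a factor of glial and stem cell identity (chromosome 11, 112782224 to 112787760, GRCm38), had 9.79, 9.77, 9.71 and 9.7 in qNSC and 6.15, 6.25 and 6.39 in NB2 (-3.48 ± 0.13, SE, adjusted p 1.34e-17). Nr2e1 (Tlx), an orphan nuclear receptor needed for adult stem cell renewal, had 7.87, 8.1, 8.02 and 8.11 against 1.87, 2.72 and 3.13. The LIM homeobox gene Lhx2 differed by -4.95, the nuclear receptor gene Rorb by -3.55 and Prdm16 by -4.86. The 4 higher genes were Foxo6, Nfib, Nfix and Zbtb20, the last by 0.69. Foxo6, a FOXO factor of the nervous system, had 2.29, 3.2, 1.94 and 2.71 in qNSC and 7.18, 7.34 and 7.32 in NB2. Nfib and Nfix, members of the nuclear factor I family, had 8.63, 8.28, 8.38 and 8.46 and 7.86, 7.8, 8.07 and 7.8 in qNSC and 10.64, 10.75 and 10.58 and 10.23, 10.02 and 9.69 in NB2, 4.66-fold and 4.26-fold higher. The list thus held members of the same families that differed in opposite directions, among them Foxo1 at -3.86 and Nfic at -2.64 (adjusted p 9.05e-15 and 3.47e-13, both picked after their values were seen).

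In the Notch pathway, 8 of 22 genes were lower and 9 higher (median -0.15). Among the 14 averaging a log2 level of 4 or more over the 7 libraries, 7 were lower and 3 higher (median -0.418). The receptors Notch1, Notch2 and Notch3 were lower. The ligands Dll1 and Jag2 were higher by 3.57 (from 2.38 without qNSC replicate 1 to 4.24 without qNSC replicate 2) and 3.46 (from 2.74 without qNSC replicate 3 to 4.04 without qNSC replicate 4). The ligand Dll4 was also called higher, at 2.75 (from 2.1 without qNSC replicate 3 to 3.65 without qNSC replicate 4), but the call ended with values below 0 set to 0 (adjusted p 0.436) and without any of 4 libraries, NB2 replicates 1 and 2 and qNSC replicates 2 and 3 (adjusted p 0.0534 to 0.0909). The ligand Jag1 was not called with all libraries (adjusted p 0.596), but was called lower without qNSC replicate 1 (-1.09, adjusted p 0.0331) and with library weights (0.0192). Those named here outside the 5 with the smallest p each way were added after their values were seen. Notch2 had 5.93, 6.06, 5.65 and 6.38 in qNSC and 2.27, 2.32 and 2.6 in NB2 (-3.61 ± 0.37, SE, adjusted p 3.81e-09). The Notch target Nrarp, which feeds back on the pathway, had 8.24, 8.44, 8.08 and 8.34 against 4.46, 4.37 and 4.92. Hes5 and Hes1, repressors induced by Notch that were counted with the stem cell factors and picked here after their values were seen, differed by -6.24 and -6.87. Lfng and Mfng, glycosyltransferases that modify Notch receptors, moved apart, Lfng by -5.39 and Mfng by 5.74, or 4.66 without qNSC replicate 1, which was at the floor for Mfng. The ligand Dll3 differed by 3.65 (2.88 without qNSC replicate 3 and 4.32 without qNSC replicate 2). Hes6, a Notch-antagonising relative of Hes1, had 6.15, 6.1, 6.38 and 6.24 against 8.25, 7.89 and 7.87, and Numbl, a paralog of the Notch antagonist Numb, differed by 1.56. Apart from Jag1, the genes of this paragraph were called with all libraries.

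Of 20 BMP and TGF-beta genes, 11 were lower and 5 higher (median -1.52). Among the 10 averaging a log2 level of 4 or more over the 7 libraries the balance turned, with 5 higher, 2 lower and a median of 0.563. Ligands and a type I receptor were on the lower side. Bmpr1b had 7.43, 7.91, 7.85 and 7.86 in qNSC and -0.97, -1.9 and 0.81 in NB2, with a difference of -8.44 that ran from -9.19 without NB2 replicate 3 to -7.84 without NB2 replicate 2. Bmpr1a, the related receptor, was lower by less (-1.36 ± 0.15, SE, adjusted p 2.05e-08). The ligand genes Bmp6 and Tgfb2 differed by -6.45 and -4.82, with Bmp6 at -5.55 without NB2 replicate 1. Intracellular transducers lay on both sides, with Smad3 (picked after its values were seen) at -1.68. Smad4, the shared co-Smad, had 6.84, 6.99, 6.96 and 6.75 against 8.39, 8.42 and 8.38 and Smad1, which carries BMP signals, 6.2, 6.0, 5.7 and 5.97 against 7.12, 7.04 and 7.1. Id1 and Id3, BMP targets that restrain neuronal bHLH factors, differed by -6.2 (-4.93 without NB2 replicate 2, -6.87 without NB2 replicate 3 and -6.8 without NB2 replicate 1) and -7.13 (both picked after their values were seen).

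Of 18 FGF, EGF and PDGF pathway genes, 15 were lower and 2 higher (median -2.9). Egfr, the growth factor receptor of activated stem cells (chromosome 11, 16752203 to 16918158, GRCm38), had 7.02, 7.04, 7.05 and 7.03 in qNSC and 3.74, 3.66 and 3.8 in NB2, 9.87-fold lower (adjusted p 5.07e-13). Over the sorted populations it was highest in aNSC, at 9.76 ± 0.228 (SD, n = 4). Fgfr3 differed by -7.07 and Fgfr1 by -4.56. Fgfr2 stayed high in both groups, with 11.43, 11.37, 11.31 and 11.31 against 10.15, 10.18 and 10.28, and was 2.22-fold lower. Etv5, a transcriptional target of FGF signalling, differed by -2.47 and Hbegf, an EGFR ligand, by -2.96. The neuregulin receptor gene Erbb4 was the main exception, with 3.79, 3.59, 3.35 and 3.73 in qNSC and 7.64, 8.24 and 7.84 in NB2 (4.29 ± 0.35, SE, adjusted p 5.17e-11). Spry1, an inhibitor of receptor tyrosine kinase signalling, was the other gene called higher (2.03), with an adjusted p of 0.0516 when only the NB2 and qNSC libraries were fitted and a difference of 1.42 without qNSC replicate 1 and 2.62 without qNSC replicate 2.

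Of 7 surface antigens often used to sort these cells, 5 were called (71.4%), a share at the background of 71.3%. Vcam1, an adhesion molecule of quiescent stem cells, had 9.13, 9.11, 8.94 and 8.98 in qNSC and 0.66, 1.09 and 1.94 in NB2. Cd9 had 9.65, 9.27, 9.59 and 9.3 against 6.52, 6.49 and 6.23, and Cd24a, which neuroblasts carry, 5.34, 4.81, 4.42 and 3.98 against 10.36, 10.13 and 9.998. These 3 and Slc1a3 and Egfr were the called genes, 4 lower and 1 higher. Prom1 and Cd44 were not called, at -0.18 (adjusted p 0.459) and -0.41 (0.125). Cd44 was called under library weights (adjusted p 0.0405) and after centring on expressed genes (0.0254). Differences set by the sorting gates, not given in the sources used here, cannot be told apart from other differences for these antigens.

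Neuronal transcription factors were higher in NB2. Of 36 listed, 31 were higher and 2 lower, with a median of 4.1. Sox4, a factor of newborn neurons (chromosome 13, 28948919 to 28953713, GRCm38), had 6.36, 6.67, 6.06 and 6.31 in qNSC and 11.99, 12.12 and 12.3 in NB2 (5.79 ± 0.21, SE, adjusted p 1.55e-17). Dlx1 and Dlx2, neighbouring homeobox genes of the GABAergic lineage, had 5.85, 5.3, 4.99 and 5.34 and 5.98, 5.53, 5.49 and 5.54 in qNSC and 10.45, 10.72 and 11 and 11.18, 11.22 and 11.07 in NB2. Pbx3, a homeobox gene, had 4.43, 4.68, 4.18 and 4.28 against 8.64, 8.71 and 8.78. None of these 4 genes overlapped between the groups. The zinc finger gene Sall3 was 1 of the 2 lower genes, at -1.03 ± 0.28 (SE, adjusted p 0.00197). The lowest difference among the 36 was -2.88, for a gene not named here.

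Cytoskeletal genes of neurons followed, with 29 of 33 higher and none lower (median 4.04). The other 4, among them the neurofilament genes Nefl and Nefm, which were picked after their values were seen, were not called (-1.25 and 0.52, adjusted p 0.398 and 0.543), although Nefl was called lower with values below 0 set to 0 (adjusted p 0.027). Tubb3, the neuronal beta-tubulin (chromosome 8, 123411424 to 123422015, GRCm38), had 4.33, 4.84, 3.3 and 3.97 in qNSC and 11.07, 10.69 and 10.78 in NB2, 106-fold higher (adjusted p 1.31e-16). Tuba1a, the main alpha-tubulin of developing neurons, had 9.0, 8.84, 8.84 and 8.68 against the shared top value of 13.26, 13.26 and 13.26, and the microtubule-associated Map1b 6.14, 6.29, 5.74 and 5.32 against 11.37, 11.58 and 11.52. Stmn1, which destabilises microtubules, had 7.02, 7.03, 6.81 and 6.64 against 11.31, 11.15 and 11.31, and Dpysl3, a collapsin response mediator, 5.53, 5.61, 5.56 and 5.77 against 11.03, 10.85 and 10.81. The groups did not overlap for these 5 genes. The neurofilament-like Ina and the axon-specification gene Shtn1 were among the largest increases with no library at its floor, at 6.47 and 6.86. Shtn1 moved to 5.8 without qNSC replicate 3, and both moved with qNSC replicate 2, to 7.12 and 7.55 without it. Pcdha1 to Pcdha7, clustered protocadherins that share their 3′ exons, gave nearly equal values, with differences of 6.27 to 6.42 (6.9 to 7.06 without qNSC replicate 2). The authors' handling of shared reads was not stated in the labels, so these are uncertain as separate genes.

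**Figure D2:**
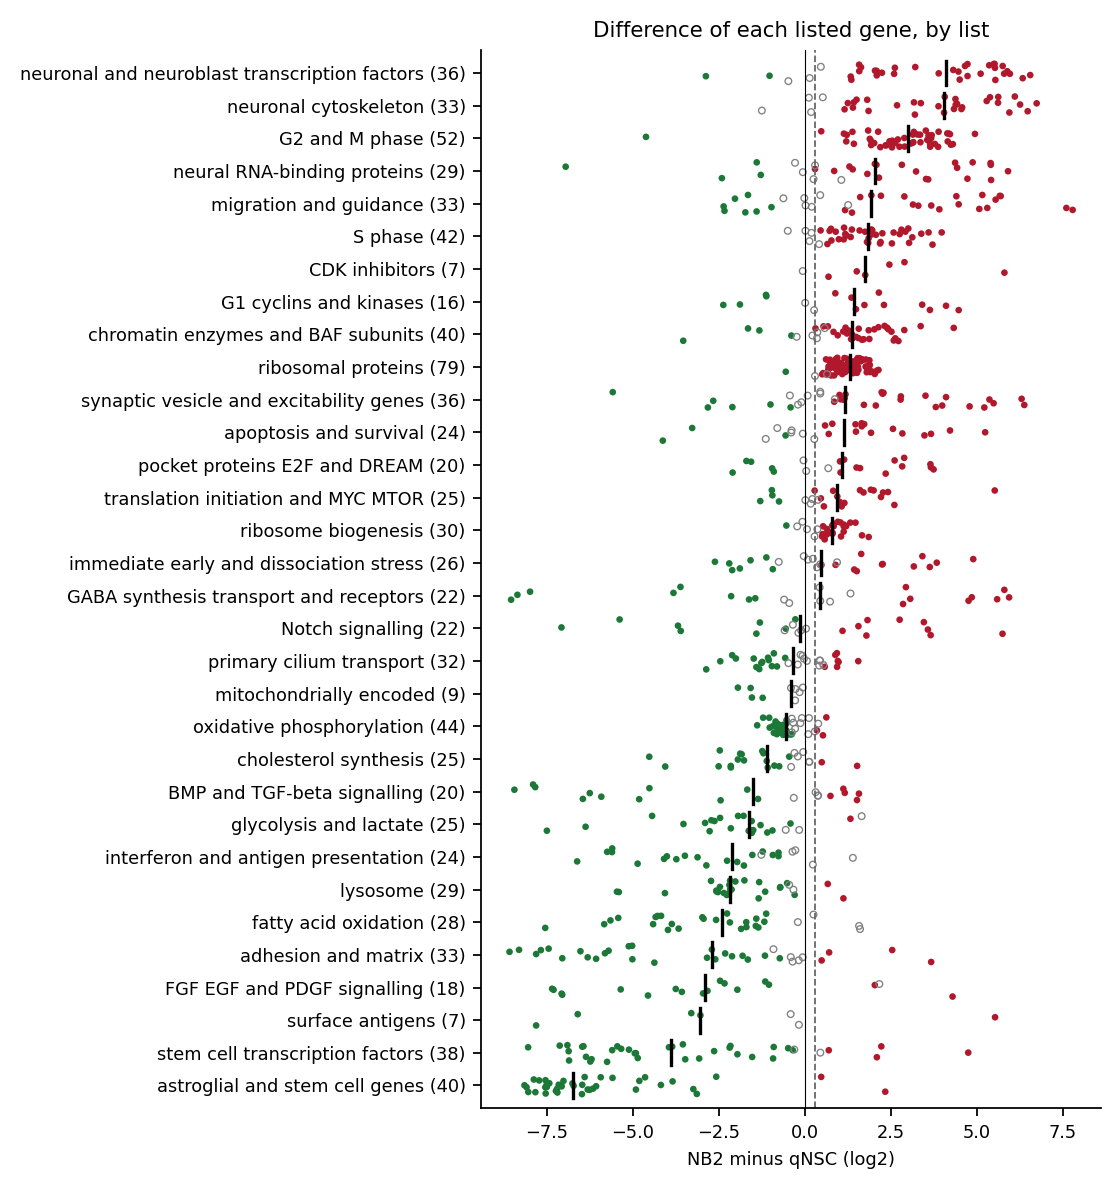
Difference NB2 minus qNSC (log2) of every expressed member of 32 gene lists, with the number of members in parentheses, red and green for genes called higher and lower in NB2, open grey for genes not called, and a black bar at each list's median. The dashed line is the median of all 16670 genes, 0.298, and list medians run from -6.74 for astroglial genes to 4.1 for neuronal transcription factors.

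Migration genes were higher in 20 of 33 cases and lower in 7 (median 1.93). Prokr2, the prokineticin receptor that guides neuroblasts to the olfactory bulb (chromosome 2, 132337733 to 132385447, GRCm38), had -2.18, 1.9, 1.68 and -0.75 in qNSC and 7.79, 7.92 and 8.12 in NB2. Its difference of 7.78 was 7.0 without qNSC replicate 1, which was at the floor. St8sia2, which attaches polysialic acid to NCAM, had 3.5, 2.95, 2.11 and 3.09 against 7.77, 8.2 and 8.24. The semaphorin co-receptor genes Plxna2 and Plxna4 differed by 5.3 and 4.4 and the repellent Slit1 by 5.66. Lower genes included the reelin adaptor Dab1 at -2.36, the adhesion genes Nrcam and Nfasc at -2.03 and -2.34, and the semaphorin receptors Plxnb1 and Nrp1 at -1.73 and -1.66. The list therefore held semaphorin receptors on both sides.

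Of 22 GABA genes, 8 were higher and 8 lower, a share called (72.7%) close to the background, with a median of 0.437. Without qNSC replicate 1, 6 were higher and 8 lower (median -0.0955), and of 12 members averaging a log2 level of 4 or more over the 7 libraries, 3 were higher and 9 lower (median -1.88). Enzymes of GABA synthesis were higher: Gad1 had 4.24, 4.27, 3.85 and 2.97 in qNSC and 8.56, 8.78 and 8.71 in NB2, and Gad2 5.1, 3.71, 2.43 and 2.66 against 9.07, 9.17 and 8.95 (5.59 ± 0.42, SE, adjusted p 1.23e-11). The vesicular transporter gene Slc32a1 was at the floor in qNSC replicates 1 and 3 and reached 2.96, 3.3 and 3.64 in NB2. Slc6a11, a glial transporter that takes up GABA, was lower, with 8.53, 8.5, 8.11 and 8.51 in qNSC and -2.09, 0.89 and 0.81 in NB2. Slc6a11 differed by -8.54, or -7.56 without NB2 replicate 1. The receptor subunit gene Gabrb1 had 8.81, 8.56, 8.69 and 8.72 against 0.66, 0.89 and 0.57. Gabrg1, another subunit gene, differed by -8.36 (-7.68 without NB2 replicate 1), and both were called lower.

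Synaptic and excitability genes were higher in 23 of 36 cases and lower in 6 (median 1.17). Nrxn3, a presynaptic adhesion gene, had 4.95, 5.37, 4.73 and 5.35 in qNSC and 10.08, 10.49 and 10.36 in NB2 (5.21 ± 0.38, SE, adjusted p 7.08e-12). Syn1 and Syn2, synaptic vesicle phosphoproteins, differed in opposite directions, Syn1 by 3.8 ± 0.26 and Syn2 by -5.59 ± 0.26 (SE, adjusted p 1.16e-12 and 1.09e-15). Beside these results, 7 of 12 markers of mature neurons were higher in NB2 and 5 lower, or 5 and 5 without qNSC replicate 1. Their linear sum over 16 markers in the table was 362 to 595 in qNSC and 228 to 255 in NB2, since Ppp1r1b, a striatal signalling gene and the largest term in qNSC, had 8.41, 8.28, 8.25 and 8.26 in qNSC and 1.25, 1.84 and 1.43 in NB2. The excitatory marker Slc17a7 and the interneuron marker Pvalb were at the floor in all 3 NB2 libraries and in 2 and 1 of the 4 qNSC libraries. Neither was expressed by the inclusion rule. Among the 7 higher markers, Snap25 had 3.06 to 6.18 in qNSC and 6.4 to 6.69 in NB2. Syt1 had 0.214 to 4.47 against 5.41 to 5.72 (both picked after their values were seen). The mean level over the 12 markers was 4.14 in qNSC replicate 2, 1.89 to 2 in the other qNSC libraries and 2.13 to 2.32 in NB2. The part of mature neurons in the synaptic differences was not tested.

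RNA-binding proteins of neurons were higher in 20 of 29 cases and lower in 4 (median 2.03). Elavl4 and Elavl3, which stabilise neuronal transcripts, had 3.34, 4.15, 3.26 and 3.69 and 4.41, 3.86, 3.89 and 3.46 in qNSC and 9.22, 8.98 and 8.84 and 7.27, 7.66 and 7.35 in NB2. Srrm4, the activator of neuronal microexons, had 0.88, 1.69, 1.15 and 1.94 against 6.68, 6.99 and 6.81. On the lower side, Zfp36l1, which promotes decay of AU-rich transcripts, had 6.87, 7.12, 7.09 and 7.21 against -1.24, 0.79 and 0.81, a difference of -6.95 that was -6.27 without NB2 replicate 1. Qk, an RNA-binding protein of glia, had 9.26, 9.43, 9.55 and 9.59 against 7.19, 7.28 and 6.66 (-2.41 ± 0.17, SE, adjusted p 2.1e-12).

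Of 40 chromatin genes, 31 were higher and 4 lower (median 1.38). Rest, the repressor of neuronal genes in other cells (chromosome 5, 77265491 to 77286432, GRCm38), had 5.33, 5.09, 5.52 and 5.3 in qNSC and 1.9, 1.71 and 1.71 in NB2 (-3.54 ± 0.41, SE, adjusted p 2.58e-08). The deacetylase gene Hdac2 had 6.25, 6.63, 6.58 and 6.5 against 9.23, 8.97 and 9.14, whereas Hdac1 differed by -0.39, a call that ended without NB2 replicate 3 (adjusted p 0.0661) and with only the 2 groups fitted (0.0605). Smarca4, the ATPase of the BAF remodelling complex, had 6.01, 6.58, 6.1 and 6.43 against 8.72, 8.74 and 8.65. Phf10, a subunit of the progenitor form of that complex, was lower at -1.32. Actl6b, of the neuronal form, and Actl6a, of the progenitor form, both picked after their values were seen, were higher at 4.33 and 1.34.

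The cell cycle genes separated the resting stem cells from the neuroblasts at several levels. Among pocket proteins and their partners, 12 of 20 were higher in NB2 and 5 lower (median 1.09). Among the 11 averaging a log2 level of 4 or more over the 7 libraries the balance turned, with 4 higher, 5 lower and a median of -0.0412. Rbl2 (p130), the pocket protein that occupies E2F promoters in resting cells (chromosome 8, 91070057 to 91123844, GRCm38), had 6.61, 6.97, 6.64 and 6.97 in qNSC and 4.87, 5.42 and 5.41 in NB2, 2.96-fold lower (adjusted p 2.25e-07). Rb1, the retinoblastoma gene, had 6.78, 7.19, 7.21 and 7.4 against 6.14, 6.08 and 6.5, 1.87-fold lower (adjusted p 0.00015). Rbl1 (p107), which is transcribed in cycling cells, went the other way, with 1.98, 3.08, 3.68 and 3.72 against 4.21, 4.34 and 4.21 and a difference of 1.14 ± 0.3 (adjusted p 0.00154). The E2F genes E2f5 and E2f6 were lower, E2f5 with 6.94, 6.28, 6.41 and 6.27 against 4.69, 4.28 and 4.15 and E2f6 by -0.95. Lin52 of the DREAM complex was also lower, at -1.7. E2f4, the E2F usually paired with p130, was not called (-0.041, 95% interval -0.47 to 0.39, adjusted p 0.87), nor were E2f3 (0.037, adjusted p 0.922) and Lin54 (0.68, 0.107), although Lin54 was called without qNSC replicate 3 (0.988, adjusted p 0.0198).

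Of the other E2F genes, E2f1 had -0.0086, 3.58, 2.76 and 2.6 in qNSC and 5.11, 4.94 and 5.13 in NB2, and its called difference of 2.83 was 2.08 without qNSC replicate 1. E2f2 differed by 2.35, and the late-acting E2f7 and E2f8 by 3.74 and 2.61. Foxm1, the activator of G2 and M phase genes, had 2.64, 3.0, 1.87 and 1.48 against 4.51, 5.36 and 5.52 (2.89 ± 0.42, SE, adjusted p 1.39e-06). Mybl2, of the activating MuvB complex, had 1.85, 2.21, -4.19 and 2.19 against 4.18, 4.11 and 4.21, so its difference of 3.65 rested in part on qNSC replicate 3 at the floor and was 2.08 without it. Lin9 and Lin37, MuvB core subunits like Lin52, were higher by 3.66 and 1.6, with Lin9 at 2.54 without qNSC replicate 1. The E2F partners Tfdp1 and Tfdp2 differed by 1.5 (0.913 without qNSC replicate 1) and 1.04, and the histone chaperone Rbbp4 by 1.02.

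CDK inhibitors were higher in NB2 as well, with 6 of 7 higher, none lower and a median of 1.75. The mean level over the list was 2.32 in qNSC and 4.47 in NB2. It was 3.67 in pNSC, 4.46 in aNSC, 5.06 in NPC1, 5.29 in NPC2, 5.42 in NB1 and 5.22 in Other. Cdkn1c (p57, chromosome 7, 143458339 to 143461050, GRCm38) had -2.18, 2.17, -0.99 and 1.24 in qNSC and 6.08, 5.7 and 5.8 in NB2. Its difference was 5.8 ± 0.58 (SE, adjusted p 2.18e-09), 5.05 without qNSC replicate 1, which was at the floor, and 6.5 without qNSC replicate 2. Cdkn1a (p21) had 0.47, 2.48, 1.56 and 3.03 against 4.67, 4.11 and 4.25, and Cdkn1b (p27), an inhibitor linked to neuronal cell cycle exit, 5.49, 5.21, 4.99 and 5.09 against 6.77, 6.58 and 6.75. Cdkn2c (p18) had 4.57, 3.32, 3.59 and 3.29 against 5.45, 5.34 and 5.54 and Cdkn2d (p19) 5.25, 4.87, 4.92 and 4.85 against 5.85, 5.5 and 5.62. No qNSC library of these genes reached an NB2 library, at differences of 2.46, 1.51, 1.75 and 0.69. Cdkn3, a phosphatase that dephosphorylates CDKs, differed by 2.89. Cdkn2b (p15) overlapped and was not called (-0.064, 95% interval -1.46 to 1.34, adjusted p 0.938). Cdkn1b was highest among the 8 populations in Other (7.17 ± 0.0833, SD, n = 3), then NB2 (6.7 ± 0.106, n = 3), and lowest in qNSC (5.19 ± 0.216, n = 4).

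**Figure D3:**
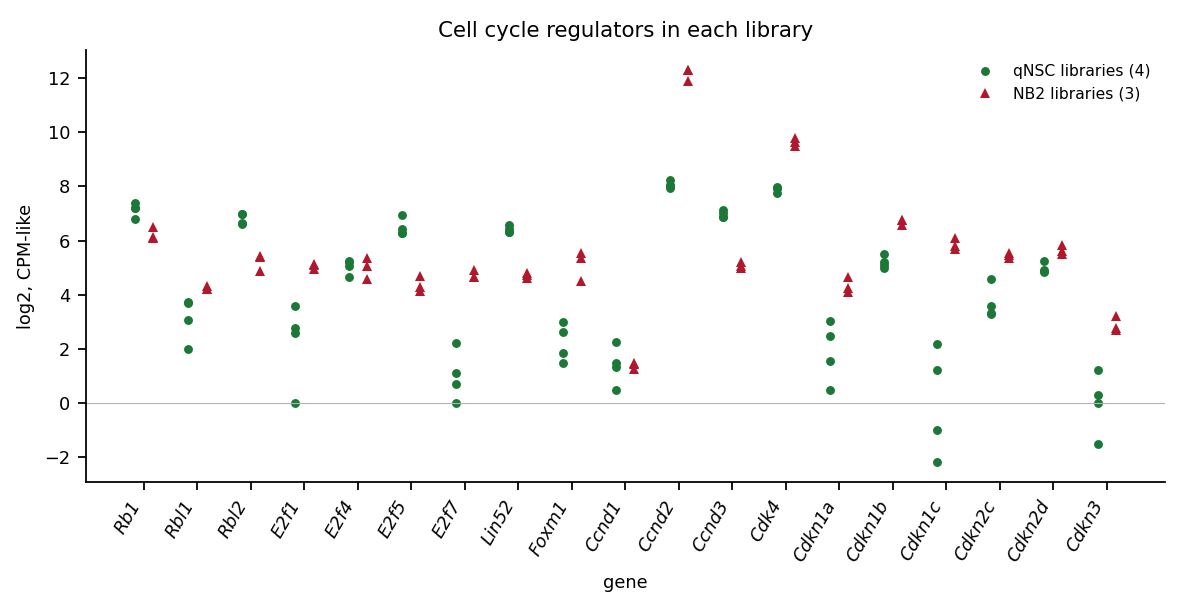
Level (log2, CPM-like) of 19 cell cycle regulators in each of 4 qNSC libraries (green circles) and 3 NB2 libraries (red triangles). Rb1, Rbl2, E2f5, Lin52 and Ccnd3 sit higher in every qNSC library, Ccnd1 and E2f4 overlap, and the others sit higher in every NB2 library.

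D-type cyclins differed in opposite directions. Ccnd2, the main D-type cyclin of neuronal progenitors (chromosome 6, 127125162 to 127152193, GRCm38), had 8.03, 8.22, 7.93 and 8.04 in qNSC and 12.3, 12.3 and 11.87 in NB2, 17.2-fold higher (adjusted p 6.02e-13). Ccnd3 had 7.14, 6.88, 7.0 and 6.86 against 5.21, 4.98 and 5.05, 3.71-fold lower. Ccnd1, picked after its values were seen, overlapped at low levels and was not called (0.0072, adjusted p 0.989). The kinase gene Cdk4 had 7.77, 7.97, 7.93 and 7.94 against 9.79, 9.62 and 9.49, and the phosphatase Cdc25a 2.25, 3.53, 2.42 and 3.44 against 6.43, 6.54 and 6.66. Antiproliferative genes of the BTG and TOB family lay on both sides, with Btg1 at 2.3, Btg2 at -1.12 and Tob1 at -2.37. The atypical cyclins Ccng1 and Ccng2, both stress and arrest responsive, differed by -1.13 and 3.41. Of the 16 genes listed, 10 were higher and 4 lower. The higher count was 9 after centring on expressed genes and 7 with only the NB2 and qNSC libraries fitted.

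DNA replication and mitosis genes were higher in the neuroblasts. Of 42 S phase genes, 37 were higher and none lower (median 1.82), while 51 of 52 genes of the G2 and M phases were higher and 1 lower (median 2.99). Without qNSC replicate 1 the counts were 36 and 51 higher with 0 and 1 lower. Mcm5, of the replicative helicase, had 3.08, 4.22, 3.44 and 4.31 in qNSC and 6.64, 6.51 and 6.54 in NB2 (2.81 ± 0.3, SE, adjusted p 5.66e-09). Pola2, a primase-polymerase subunit, had 2.99, 3.12, 3.4 and 3.98 against 5.7, 5.5 and 5.48 and Rfc3, of the clamp loader, 2.46, 3.05, 3.63 and 2.83 against 5.95, 5.93 and 6.19. Ccnb1, cyclin B1 of the mitotic kinase (chromosome 13, 100778650 to 100786570, GRCm38), had 2.4, 2.1, 1.81 and 2.7 in qNSC and 6.01, 5.86 and 5.94 in NB2 (3.68 ± 0.19, adjusted p 6.94e-15). Tpx2 and Racgap1, of the spindle and the division furrow, had 3.08, 3.2, 3.4 and 3.27 and 3.45, 4.28, 3.83 and 4.61 in qNSC and 6.3, 6.34 and 6.56 and 7.72, 7.7 and 7.62 in NB2. Mki67, the common proliferation marker, had 2.16, 2.51, 3.1 and 3.46 against 5.79, 5.96 and 5.9. No library overlapped for these 7 genes. Pttg1, securin (chromosome 11, 43420250 to 43426251, GRCm38), was the exception, with 7.29, 6.73, 7.18 and 6.93 in qNSC and 2.68, 2.07 and 2.49 in NB2 (-4.62 ± 0.29, SE, adjusted p 3.03e-13).

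Both lists were lower in NB2 than in aNSC and NB1. The mean level over the S phase list was 3.81 ± 0.377 in qNSC and 5.56 ± 0.0323 in NB2, beside 7.68 ± 0.0672 in aNSC and 7.51 ± 0.0642 in NB1 (SD over libraries, n = 4, 3, 4 and 3). Over the G2 and M phase list it was 2.8 ± 0.625 in qNSC, 5.56 ± 0.0509 in NB2, 7.32 ± 0.0417 in aNSC and 7.75 ± 0.107 in NB1. The NB2 libraries lay above every qNSC library and below every aNSC and NB1 library on both lists. Bulk values do not show whether all NB2 cells carried an intermediate level or some cells a high one.

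**Figure D4:**
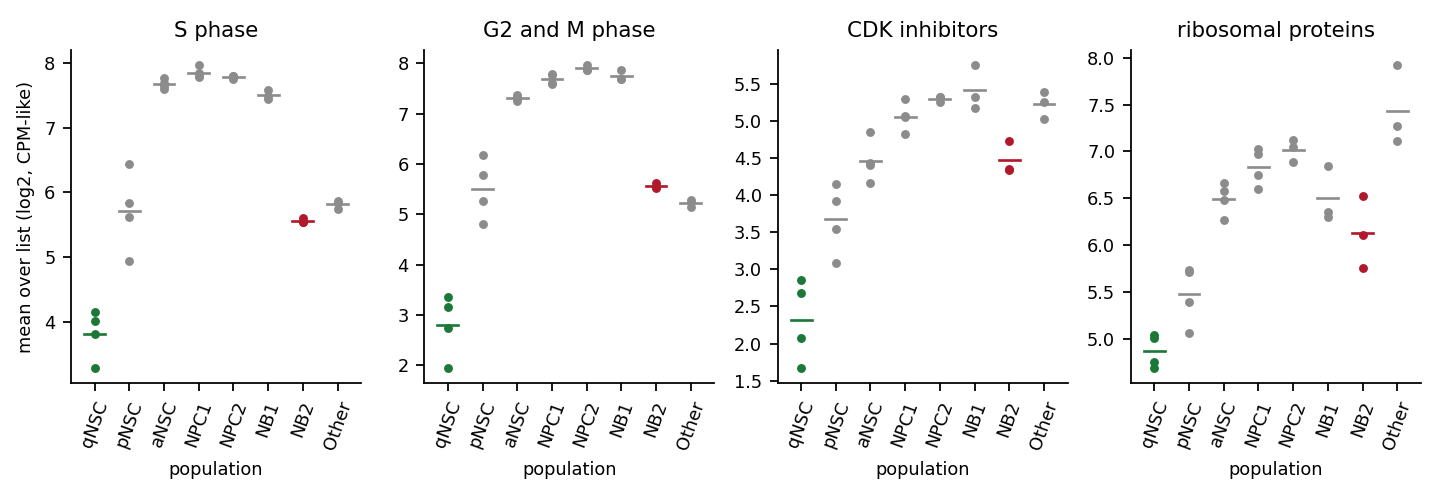
Mean level over the expressed members of 4 lists (log2, CPM-like) in each library of the 8 sorted populations, with lines at population means, qNSC in green and NB2 in red. NB2 lies between qNSC and aNSC for S phase genes (3.81, 5.56 and 7.68) and for G2 and M phase genes (2.80, 5.56 and 7.32). Means of pNSC (5.71 and 5.51) and Other (5.82 and 5.23) lie near those of NB2.

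Promoters of the genes that moved together were read for the words that cell cycle factors bind, in the 250 bases upstream of each RefSeq start (GRCm38.p6), on both strands. The words were the cell cycle homology region TTTGAA, read by DREAM and its activating forms, the NF-Y box CCAAT, the E2F words TTTCCCGC, TTTGGCGC and TTTCGCGC, and the TATA box TATAAA, which is no cell cycle word. TTTGAA was found upstream of 16 of 44 G2 and M phase genes matched (36.4%), against 16.3% of all 27025 promoters and 10.5% of the 11238 matched among expressed genes. CCAAT was found in 32 of the 44 (72.7%), against 34.5% of all promoters and 36.6% of expressed genes. It was also found in 20 of 32 S phase genes (62.5%) and 13 of 20 neuronal transcription factors (65%). An E2F word was found in 9 of 32 S phase genes matched (28.1%), against 1.59% and 2.93%. Upstream of neuronal cytoskeleton genes, TATAAA was found in 7 of 19 matched (36.8%), against 13% of all promoters and 6.13% of expressed genes. Over the genes called higher and lower in NB2, shares of 2 words were near those of all expressed genes, at 10.8% and 10.5% for TTTGAA and 35.9% and 37.8% for CCAAT. An E2F word was found in 3.73% of the genes called higher and 2.13% of those called lower, on either side of the 2.93%. TATAAA was found in 6.21% and 5.84%. A word match describes the sequence and shows no binding. The 4 stretches below run 170 bases up to the start, 5′ to 3′ in the direction of the gene, with CCAAT (or ATTGG on the other strand), TTTGAA (or TTCAAA) and, for Mcm6, the E2F words in capitals. Racgap1 holds 1 CCAAT box and no TTTGAA in its stretch, Ccnb2 has 3 CCAAT boxes with TTTGAA, and Kif11 has 1 of each. Mcm6 has 2 CCAAT boxes and 3 E2F words, 2 of which overlap. Ccnb2, Kif11 and Mcm6 were picked after values were seen, and all 4 come from genes whose stretch overlaps no annotated exon (GENCODE M21).
Racgap1 (chr15:99651657-99651826, minus strand): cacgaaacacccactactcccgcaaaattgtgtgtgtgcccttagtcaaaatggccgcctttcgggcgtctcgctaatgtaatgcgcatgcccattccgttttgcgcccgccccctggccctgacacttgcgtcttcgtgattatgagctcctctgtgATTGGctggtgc
Ccnb2 (chr9:70421555-70421724, minus strand): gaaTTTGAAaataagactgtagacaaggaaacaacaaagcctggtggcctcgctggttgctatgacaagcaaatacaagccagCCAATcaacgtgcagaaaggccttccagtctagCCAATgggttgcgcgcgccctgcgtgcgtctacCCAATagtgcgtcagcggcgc
Kif11 (chr19:37376212-37376381, plus strand): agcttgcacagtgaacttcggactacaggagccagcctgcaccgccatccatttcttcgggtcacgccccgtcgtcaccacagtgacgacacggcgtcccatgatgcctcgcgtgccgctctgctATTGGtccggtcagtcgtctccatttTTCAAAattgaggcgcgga
Mcm6 (chr1:128359706-128359875, minus strand): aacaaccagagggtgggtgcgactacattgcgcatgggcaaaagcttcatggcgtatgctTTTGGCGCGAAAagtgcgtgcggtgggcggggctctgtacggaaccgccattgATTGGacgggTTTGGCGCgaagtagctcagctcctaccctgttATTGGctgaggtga

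These 4 genes were all called higher in NB2. Racgap1 differed by 3.64 and the helicase subunit gene Mcm6 by 1.85. Ccnb2, cyclin B2, had -2.18, 1.78, 2.35 and 2.83 in qNSC and 4.99, 4.72 and 4.67 in NB2, and Kif11, the spindle motor Eg5, -2.18, 3.24, 3.05 and 3.72 against 6.0, 6.35 and 6.25. Their differences of 3.6 and 4.24 were 2.47 and 2.86 without qNSC replicate 1, which was at the floor for both, and Kif11 was at 4.83 without qNSC replicate 4.

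Ribosomal protein genes were higher in NB2 in 76 of 79 cases and lower in 1 (median 1.31). Rpsa, of the small subunit, had 4.4, 4.65, 4.57 and 4.15 in qNSC and 6.58, 6.26 and 5.87 in NB2 (1.8 ± 0.2, SE, adjusted p 1.58e-08). Rpl23a was the single lower gene (-0.56), a call that ended without NB2 replicate 3 (adjusted p 0.12). Many ribosomal protein genes have processed pseudogenes that can share reads, so single values are uncertain. Ribosome biogenesis genes were higher in 24 of 30 cases and lower in 1 (median 0.798). The higher count was 18 after centring on expressed genes and 20 with only the 2 groups fitted. Higher genes included the nucleolar methyltransferase Fbl at 1.66 and the polymerase I factor Ubtf at 1.32. The elongation factor genes Eef1a1 and Eef2 differed by 2.27 and 1.92. In the MYC family, Mycl had 0.29, 3.66, 3.64 and 4.05 against 8.36, 8.46 and 8.47 and Mycn 4.54, 3.83, 3.68 and 3.18 against 6.25, 6.04 and 6.39, while Myc was lower, at 4.44, 3.78, 3.89 and 3.57 against 3.13, 2.76 and 3.03. The Mycl difference of 5.52 was 4.64 without qNSC replicate 1. Of the 25 genes of translation initiation, MYC and MTOR, 17 were higher and 4 lower.

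Energy metabolism ran the other way. Glycolysis and lactate genes were lower in 21 of 25 cases and higher in 1 (median -1.63). Aldoa, aldolase A, had 10.18, 10.1, 10.08 and 10.08 in qNSC and 6.88, 6.36 and 6.51 in NB2 (-3.53 ± 0.17, SE, adjusted p 1.49e-15), and the glucose transporter gene Slc2a1 8.07, 7.99, 7.92 and 8.0 against 3.64, 3.52 and 3.49. Pdk4 and Pdk2, kinases that hold pyruvate out of mitochondria, differed by -6.38 and -2.77. Slc2a3, the neuronal glucose transporter, was the gene called higher, with 2.43, 4.69, 3.52 and 3.94 against 4.64, 4.92 and 5.35 (1.32, adjusted p 0.00173).

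Fatty acid oxidation genes were lower in 24 of 28 cases and higher in none (median -2.42). Acsl3, an acyl-CoA synthetase, had 10.43, 10.49, 10.52 and 10.55 in qNSC and 6.37, 6.21 and 6.37 in NB2 (-4.18 ± 0.11, SE, adjusted p 1.68e-19). Its relative Acsbg1 had 10.21, 10.28, 10.16 and 10.28 against 3.13, 2.26 and 2.68, and the mitochondrial dehydrogenases Hadh and Acadl differed by -4.34 and -3.98. Cholesterol synthesis genes were lower in 17 of 25 cases and higher in 2 (median -1.11), with the regulator Srebf1 at -4.52 and the sterol oxidase Msmo1 at -4.06. Nuclear respiratory chain genes were lower in 31 of 44 cases by small steps (median -0.546) and higher in 3. The 3 higher genes all encode ATP synthase subunits, and Atp5a1 and Atp5b differed by 0.62 and 0.52, and Atp5o by 0.35. The Atp5o call ended without NB2 replicate 1 (adjusted p 0.0747) and after centring on expressed genes (0.338). Of 9 mitochondrially encoded genes, 4 were lower and none higher (44.4% called, below the background), led by mt-Nd2 and mt-Nd5 at -1.58 and -1.54. Ndufs7 of complex I differed by -1.39 and Sdhc of complex II by -1.22.

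Lysosomal genes were lower in 25 of 29 cases and higher in 2 (median -2.17), and without qNSC replicate 1 the higher count was 0. Tpp1, a lysosomal peptidase, had 8.44, 8.7, 8.72 and 8.68 in qNSC and 3.08, 3.28 and 3.15 in NB2 (-5.46 ± 0.17, SE, adjusted p 3.43e-18). The membrane proteins Lamp1 and Lamp2 differed by -2.17 and -2.36 and the protease Ctsb by -2.02. Interferon and antigen presentation genes were lower in 19 of 24 cases and higher in none (median -2.12). The class I heavy chain gene H2-K1 had 7.59, 7.71, 7.67 and 7.53 against 2.17, 1.59 and 2.3, its partner B2m 6.88, 7.4, 7.34 and 7.25 against 3.73, 3.53 and 3.18, and the peptide transporter gene Tap2 differed by -4.86. Summed over 20 microglial markers on the linear scale, the levels were 354 to 951 in qNSC and 250 to 343 in NB2. The part of these cells in the lysosomal and interferon differences was not tested.

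Adhesion and matrix genes were lower in 24 of 33 cases and higher in 4 (median -2.7). Sparcl1, a matricellular protein of astrocytes, had 11.37, 11.43, 11.37 and 11.37 in qNSC and 5.24, 4.7 and 5.28 in NB2 (-6.31 ± 0.27, SE, adjusted p 3.03e-16). The heparan sulphate proteoglycan Sdc4 differed by -8.31 and the metalloproteinase inhibitors Timp3 and Timp4 by -5.81 and -7.45. Higher were the proteoglycan gene Vcan, with 3.56, 4.31, 4.78 and 4.27 against 7.8, 8.04 and 7.86, and N-cadherin (Cdh2) at 0.7.

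Genes of apoptosis and survival, which hold both pro-apoptotic and protective members, were higher in 15 of 24 cases and lower in 3 (median 1.13), close to the background share of calls at 75%. Hrk, a pro-apoptotic BH3 protein of neurons, had -2.18, 0.69, -0.64 and -1.91 in qNSC and 4.17, 4.19 and 4.33 in NB2 (5.24 ± 0.57, SE, adjusted p 8.83e-09). Survival proteins of the BCL2 family lay on opposite sides, Bcl2 with 7.2, 7.11, 7.31 and 7.39 against 3.93, 3.91 and 4.08 and Mcl1 with 5.97, 6.31, 6.14 and 6.36 against 8.05, 8.18 and 8.12.

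Immediate early and stress genes were higher in 12 of 26 cases and lower in 7 (73.1% called, near the background), with a median of 0.462 that was 0.073 without qNSC replicate 1. Ier2 had 3.7, 6.61, 3.78 and 4.66 in qNSC and 8.83, 8.42 and 8.32 in NB2, Egr1 7.11, 8.5, 7.17 and 7.57 against 9.74, 9.81 and 9.93 and Jund 7.46, 8.06, 7.65 and 7.69 against 9.87, 9.9 and 10.15. The Ier2 difference of 3.83 was 4.47 without qNSC replicate 2. The heat shock genes Hspa1a and Hspa1b were lower, at -1.89 and -2.11. The part of dissociation and sorting in these genes was not tested.

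Primary cilium transport genes were lower in 15 of 32 cases and higher in 7, a share called of 68.8% that was below the background. After centring on expressed genes 4 were higher. Ift57 of the anterograde train differed by -2.46 and Bbs2 of the BBSome by -2.87, while the kinesin subunit gene Kif3a was higher at 0.93. Ependymal markers, which mark multiciliated cells, moved with the lower genes: their linear sum over 18 markers was 186 to 241 in qNSC and 65.9 to 72.4 in NB2. Foxj1, the factor that drives motile cilia, had 3.46, 4.04, 3.18 and 3.53 in qNSC and -4.56, -0.3 and 0.44 in NB2, a difference of -5.02 that ran from -5.98 without NB2 replicate 3 to -3.48 without NB2 replicate 1. Of 14 ependymal markers expressed, 9 were lower and 3 higher, the latter Dnah11, Hydin and Spag17. The part of ependymal cells in the cilium differences was not tested.

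Shares called in the marker lists of other cells were 30% for microglia, 0% for endothelium, 33.3% for mural cells, 70% for oligodendrocytes and 40% for erythroid cells, all below the 71.3% of all genes. They were above it for oligodendrocyte precursors (80%), ependyma (85.7%) and mature neurons (100%). Of 20 microglial markers, 5 were called lower and 1 higher with all libraries, and 16 lower and 1 higher without qNSC replicate 1, where 10 markers were at the floor. P2ry12, a defining microglial receptor, had 5.46, 4.68, 5.71 and 5.97 in qNSC and 1.53, 2.09 and 3.09 in NB2. Cx3cr1 was the higher gene (0.53), a call lost after centring on expressed genes (adjusted p 0.0925). Of 18 endothelial markers, 13 were not expressed by the inclusion rule and none of the other 5 was called. Their sum was 23.1 to 35.2 in qNSC and 20.8 to 31.1 in NB2, with Cldn5 among those not reaching the rule. Mural markers summed to 138 to 181 in qNSC and 8.33 to 20.5 in NB2, with 2 of 6 called lower. Those were Pdgfrb and Notch3, which the PDGF and Notch lists also hold, at -7.05 and -7.08 (-7.74 without NB2 replicate 1). The pericyte marker Rgs5, picked after its values were seen, had -2.18, 1.01, 1.94 and 1.14 in qNSC and -0.97, 0.28 and -1.23 in NB2, and was called lower only with values below 0 set to 0 (adjusted p 0.0381). Of 10 oligodendrocyte markers, 5 were lower and 2 higher, with sums of 439 to 735 in qNSC and 225 to 248 in NB2. The sum of 735 was that of qNSC replicate 2, and the other qNSC sums were 439 to 467. The mean level over the 10 was 3.72 in that library, 1 to 1.66 in the other qNSC libraries and 0.79 to 1.3 in NB2. What set qNSC replicate 2 apart on these markers was not tested. Of 5 precursor markers, 3 were lower and 1 higher, with sums of 52.1 to 119 and 92.9 to 150. Of 5 erythroid genes, 2 were higher and none lower, and they summed to 6.84 to 32.5 in qNSC and 44.2 to 100 in NB2.

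**Figure D5:**
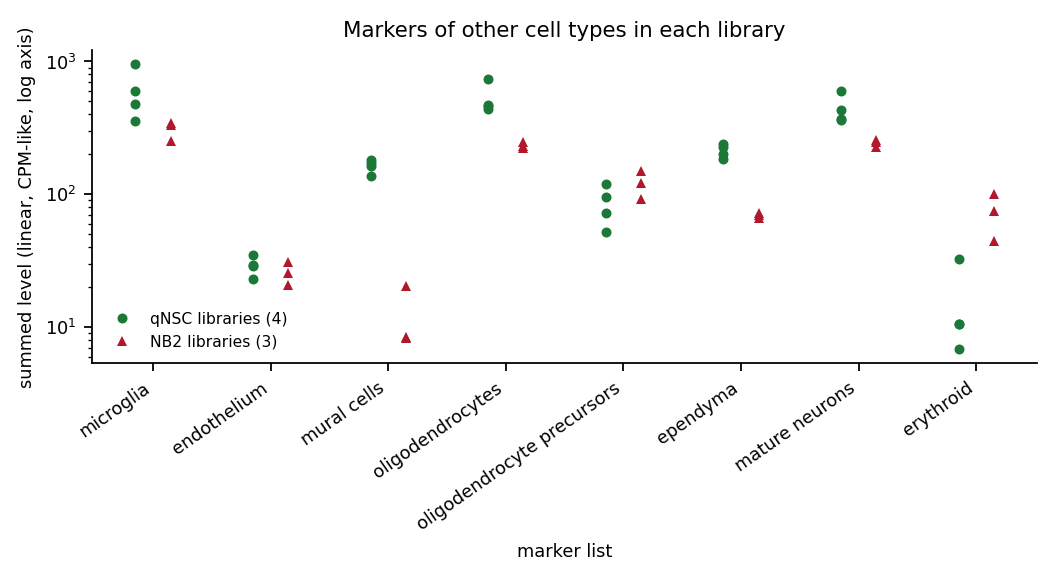
Summed linear level (CPM-like, log axis) of the markers of 8 other cell types in each of 4 qNSC libraries (green circles) and 3 NB2 libraries (red triangles). Mural, ependymal, oligodendrocyte, mature neuron and microglial sums are lower in every NB2 library than in any qNSC library, erythroid sums higher, and endothelial and precursor sums overlap.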

How the data were processed

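Poly(A) RNA of each sorted population was made into SMARTer Ultra Low libraries and sequenced on a NextSeq instrument, per the labels' protocols. Tools listed in the submitters' processing notes are HISAT2, featureCounts, limma, Trimmomatic, cutadapt and FastQC, with the builds GRCm38 and mm10. Versions, roles and settings, strand included, were not given in the sources used here, so antisense and overlapping genes are uncertain. The authors deposited 1 log2 value per gene and library, with a unit that was read from the values because no header names it. The linear sums of 987637 to 987910 per library lie near those of CPM values, and the shared maximum and near-equal medians (3.53 to 3.56) mean that levels are relative within a library. Read counts were not used here, and no interval for counting error could be given.

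A mean per population was fitted with limma 3.58.1 (R 4.3.3, statmod 1.5.0) over the 28 freshly sorted libraries, with trend and robust settings, on the 17788 genes for which 3 libraries of some population had a log2 value of 0 or higher. The contrast was NB2 minus qNSC, p-values were adjusted by Benjamini-Hochberg over those 17788 genes, and the 16670 genes that passed in either group are reported. Cultured neurosphere libraries were left out as another origin. The code was tested on simulated data. Coordinates and exons are from GENCODE M21, matched by gene identifier for 19863 of 19909 genes. Promoters are from RefSeq, matched by symbol.

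The contrast, its gene rule and all 40 gene lists (1078 different genes, 1006 reported) were chosen with earlier results of these data known. Named genes are all surface antigens, CDK inhibitors and pocket protein, E2F and DREAM genes; part of the 12 largest differences each way among called genes with a mean of at least 5 and no overlap, with and without genes at a floor; part of the 5 members each way of each list with the smallest p; and Mki67, Egfr, Dcx and Gfap. Some genes that this rule selects are not reported here. Alternatives were another centring, library weights, a replicate block, other filters, only the compared groups, and leaving out each library.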

Additional observations from a re-analysis of the deposited data

Results flagged for a closer look

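In the qNSC group of 4 libraries, 1 library was marked as apart from the other 3 by Dixon's ratio for 24 of the 225 named genes tested. Chance alone marks some groups in any such set. The ratio divides a gap by the range, so small gaps were marked too, as at Sparcl1, Aldoa and Ppp1r1b. At Cst3 the other 3 libraries sat at the shared top value. Below, stood apart means marked by this ratio. The NB2 group, with 3 libraries, was not tested. qNSC replicate 1 stood apart at Acadl (8.32), Aldoa (10.2), Bmpr1b (7.43), Ccng2 (4.07), Cdkn2d (5.25), Dlx2 (5.98), Gcnt4 (4.25), Jag1 (0.473), Kif11 (-2.18), Lin9 (-2.18), Mfng (-2.18), Mycl (0.294), Nes (4.23), Nfic (6.29), Ppp1r1b (8.41), Slc39a12 (9.05) and Tpp1 (8.44). qNSC replicate 2 stood apart at Btg2 (7.17), Cst3 (13), Id1 (5.44) and Sparcl1 (11.4). qNSC replicate 3 stood apart at Mybl2 (-4.19) and Slc6a11 (8.11). qNSC replicate 4 stood apart at Hadh (7.4). Values in parentheses are that library's log2 levels. Without qNSC replicate 1, list counts in either direction moved by at most 2, except for microglial markers called lower, which went from 5 to 16. What set that library apart was not tested.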

How the results depend on the processing

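The count of 11879 called genes ran from 11028 to 11895 when each library was left out in turn, and the count over 2-fold, 9184, from 8795 to 9138. Restricting the fit to genes with a mean of at least 4 gave 6581 and 4200 calls, since only 8822 genes were then tested. Fitting only the NB2 and qNSC libraries gave 11074 calls, library weights 12832, and setting values below 0 to 0 gave 12151. Centring on the differences of expressed genes, chosen after seeing the data, gave 11522 calls, 5856 higher and 5666 lower, and shifted the median of all genes by -0.22. Replicate numbers did not pair the libraries, as deviations of same-numbered libraries correlated at 0.0764, 0.00274 and -0.0183, and the fit with a replicate block gave 11747 calls and 9104 over 2-fold. Of the 225 named genes followed through these settings, 214 were called, 207 of them under every alternative that held them. None of the called genes changed sign under the 17 alternatives tried. Snap25 and Syt1 were not followed. Ccnd1, Cdkn2b, E2f3 and E2f4, which were not called, changed sign under some of them, such as when single libraries were left out. Without read counts, differences of genes near a floor are limited by depth that is not known, most of all in qNSC replicate 1.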
